A study of Homo sapiens with 45 samples.

Results

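High and low immediate early gene cells were the 12 cells with the most and the 12 cells with the least EGR1 and FOS RNA among 38 scored H1 cells, out of 45 cells in the whole series. The score of a cell was log2 of its summed EGR1 and FOS counts per 1000000 counts of the cell (CPM) plus 1, minus the mean of that value over the cells prepared in the same way. The 14 cells between the sets were used for correlations only, and the 7 fixed cells lysed with Triton were not scored. The cells were thus chosen by their measured EGR1 and FOS levels, whose values are a description of the choice, and the results are the values of the other genes.

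H1 is an established human embryonic stem cell line, used here at passage 40, grown on Matrigel in mTeSR1 medium and detached with Accutase. The study set FRISCR, a method that recovers RNA from single fixed and permeabilized cells, against Triton X-100 lysis, in fixed cells (DAPI+) and in live cells (DAPI-). Each cell gave 1 Smart-seq2 library. The high set held 5 live cells prepared by FRISCR, 4 fixed cells prepared by FRISCR and 3 live cells lysed with Triton, and the low set held 5, 4 and 3 cells of the same preparations. The labels name no stimulus and no added gene for any cell, and every cell came from the same line. Because the labels name no separate cultures, each set counted as 1 sample: cells are not replicates, and no p-value, standard error or test of chance is given.

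Immediate early genes are genes whose transcription starts within minutes of a signal, from factors already present in the cell. The ERK pathway acts on EGR1 and FOS through serum response factor bound with ETS-family partners, and calcium and cAMP signals act through CREB. EGR1 is a zinc finger transcription factor, and FOS pairs with JUN proteins to form AP-1. Their transcripts are short-lived.

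The sequences before the start sites of EGR1, FOS and IER2 are shown because EGR1 and FOS chose the cells and IER2 had the largest pair share, defined below, among the other immediate early genes. Each line gives 250 bases that end at the base before the annotated start, 5′ to 3′, from RefSeq on GRCh38.p14; the authors' tables used another build. All 3 lie on the plus strand, at chr5:138465229-138465478 for EGR1, chr14:75278578-75278827 for FOS and chr19:13150161-13150410 for IER2. Capitals mark every match, on either strand, to 5 motifs. These were the serum response element core, known as the CArG box, the core of a CREB site (TGACG), an AP-1 site spelled as TGANTCA, an ETS-type site spelled as CCGGAA, and a TATA box spelled as TATAAA.
EGR1: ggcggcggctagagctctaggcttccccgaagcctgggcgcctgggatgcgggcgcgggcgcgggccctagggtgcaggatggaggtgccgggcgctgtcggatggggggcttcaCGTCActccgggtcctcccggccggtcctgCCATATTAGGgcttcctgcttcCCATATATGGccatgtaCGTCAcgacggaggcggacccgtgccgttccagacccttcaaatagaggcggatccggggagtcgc
FOS: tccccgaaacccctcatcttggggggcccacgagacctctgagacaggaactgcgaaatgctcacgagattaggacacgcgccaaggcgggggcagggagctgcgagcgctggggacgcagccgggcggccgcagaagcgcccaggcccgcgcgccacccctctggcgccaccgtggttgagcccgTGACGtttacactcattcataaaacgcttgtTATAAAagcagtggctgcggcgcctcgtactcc
IER2: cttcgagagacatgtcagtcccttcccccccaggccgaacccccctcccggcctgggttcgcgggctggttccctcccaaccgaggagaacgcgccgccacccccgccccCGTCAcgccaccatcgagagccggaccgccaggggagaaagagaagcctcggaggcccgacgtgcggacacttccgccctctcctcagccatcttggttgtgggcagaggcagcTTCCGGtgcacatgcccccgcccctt
EGR1 held 2 CArG boxes, at 105 to 96 and at 83 to 74 bases upstream of the start, and 2 TGACG matches on the minus strand, at 135 to 131 and at 66 to 62 bases. FOS held TGACG at 64 to 60 bases and TATAAA at 33 to 28 bases upstream, and no CArG box within its 250 bases. Bases farther upstream were not searched for any of these genes, so a CArG box there would not be seen. IER2 held TGACG on the minus strand at 140 to 136 bases and CCGGAA on the minus strand at 26 to 21 bases upstream. No 2 of the matches overlapped. Of 35116 promoters of the same table and length, 1.16% held the CArG box, 21.2% the CREB core, 6.57% the AP-1 site, 14.5% the ETS-type site and 10.7% the TATA box. A match describes letters only.

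Both sets spanned a wide range of EGR1 and FOS. The high cells had 0 to 442 CPM of EGR1 with a median of 51.5, and the low cells had 0 to 13.8 CPM with a median of 0.808. FOS was at 0 to 191 CPM in the high cells with a median of 58.8, and at 0 to 19.3 CPM in the low cells with a median of 0. EGR1 had a count in 11 high and 8 low cells, and FOS in 11 high and 4 low cells. The genes did not go together closely: over the 38 cells their Spearman rho was 0.14, and 8 cells had no EGR1 and 12 no FOS. High cells therefore included one with 115 CPM of EGR1 and no FOS (live FRISCR replicate 11) and one with 46.1 CPM of FOS and no EGR1 (fixed FRISCR replicate 5).

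The highest scores were those of 2 fixed FRISCR cells, replicate 8 at 4.59 and replicate 3 at 4.36, followed by live Triton replicate 1 at 2.94. The last high cell scored 1.08 with 44.6 CPM of both genes together, and the first cell left out scored 0.99 with 61.2 CPM. At the other end the last low cell scored -0.76 with 11.7 CPM, and the cell next to it scored -0.55 with 13.7 CPM. The limits thus fell in a continuous run of scores, and neither set was set off by a gap.

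**Figure D1:**
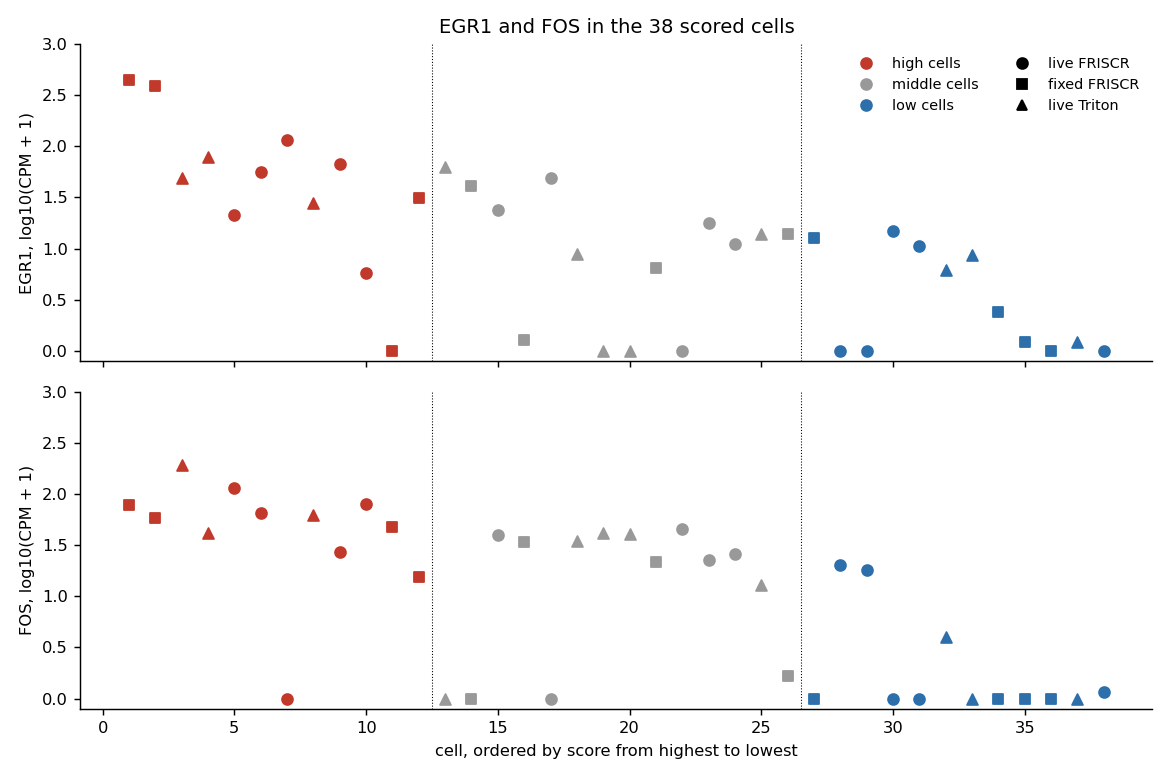
EGR1 (upper panel) and FOS (lower panel) in the 38 scored cells as log10(CPM + 1), with cells ordered by score, high cells at the left and low cells at the right. Dotted lines bound the sets and marker shapes give the preparation. The scores on either side of the limits, which the panels do not show, were 1.08 and 0.99, and -0.55 and -0.76. Single cells at 0 for one gene and not for the other occur in both sets.

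Depth was alike in the sets. Totals were 4120250 to 6594020 counts in the high cells with a median of 4682790, and 3877440 to 6030110 in the low cells with a median of 4903720. After each cell was thinned to 1000000 counts, the high cells had a median of 9046 genes with a count and the low cells 9453.5, and the unthinned medians were 10148.5 and 10550. The part of this difference in the results was not tested. All 38 cells had counts for POU5F1, SOX2, NANOG, LIN28A, L1TD1 and DNMT3B, the markers of the labelled stem cell type. Of 13 blood cell genes none reached a mean of 10 CPM, the sum over them being 3.23 to 19.6 CPM in high cells and 3.41 to 30.5 CPM in low cells. Of 17 fibroblast genes 7 reached it, with a summed level of 565 to 1753 CPM in high cells and 269.8 to 1144 CPM in low cells, and COL3A1, DCN and LUM were at 0 in every scored cell. Others of that list were present: THY1 had counts in all 38 cells, COL1A2 in 34 and COL1A1 in 29, with means of 516, 73.8 and 55.0 CPM. The titles carry 2 number codes that divide the libraries into 2 sets; the high cells held 4 cells of library set 1 and 8 of library set 2, and the low cells 5 and 7. All 5 high live FRISCR cells were in library set 2.

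Across the other genes few differed widely. A gene counted as measured when its mean over the 38 cells was at least 10 CPM, which left 8849 genes besides EGR1 and FOS. The difference was the mean log2(CPM + 1) of the high cells minus that of the low cells, each cell taken relative to its preparation. Within a library set, each cell was taken relative to the cells of its preparation in that library set. The pair share was the percentage of the 144 pairs of 1 high and 1 low cell in which the high cell was higher, with ties divided evenly. A gene was called higher at a difference of at least 1 with a pair share of at least 75%, and lower at -1 or less with at most 25%. In this sense 110 genes, 1.24% of those measured, were higher in the high cells, and 191 genes, 2.16%, were lower. No gene separated the sets, that is, 0 of 8849 had all high cells on one side of all low cells. The median difference over all measured genes was -0.03 and the median pair share 49.3%.

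**Figure D2:**
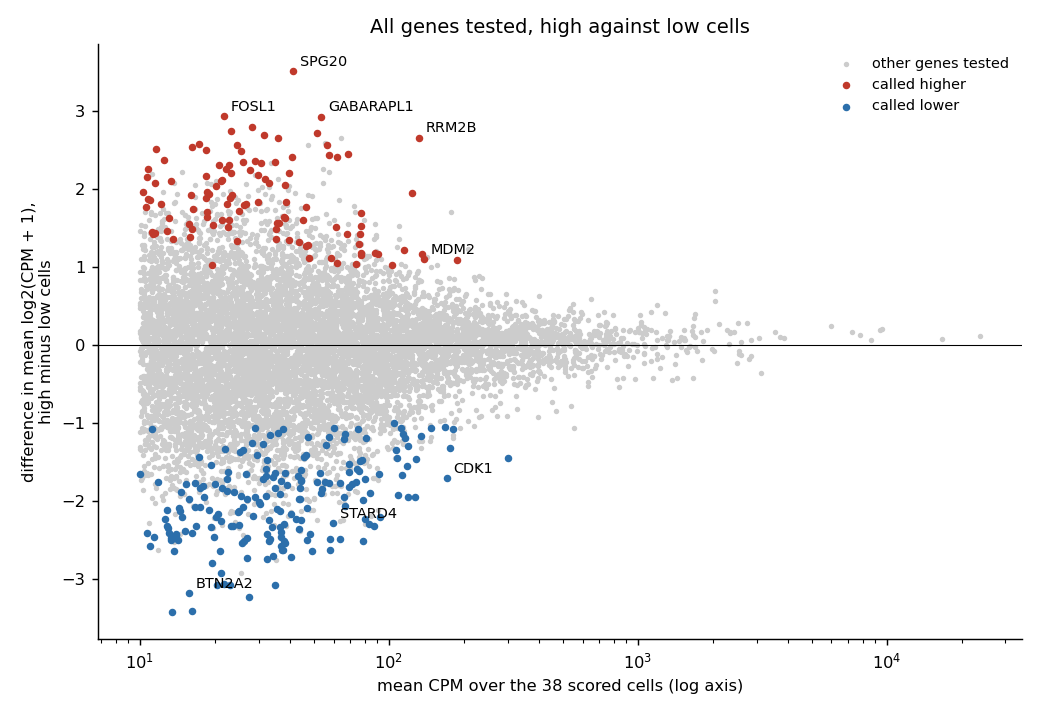
Difference in mean log2(CPM + 1), high minus low cells, against the mean CPM over the 38 scored cells (log axis), for 8849 genes. Red points are the 110 genes called higher and blue points the 191 called lower; calls lie mostly at low mean levels, where differences spread most widely.

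The other immediate early genes were divided between higher and lower. Of 58 others listed, 27 were measured, and their median difference was 0.09, with 15 above 0 and 12 below. Of all genes measured, 47.8% were above 0 and 52.2% below. Of the 27 members, 10 were above 0 in both library sets and 6 below 0 in both, where all genes gave 24.5% and 26.3%. FOSL1 was called higher, 1 of 27 against 1.24% of all genes, and no member was called lower. The list's median was 0.37 within library set 1 and -0.03 within library set 2. It was 0.15 among live FRISCR cells, 0.53 among fixed FRISCR cells and -0.22 among live Triton cells. The label of the sets thus rests on EGR1 and FOS, with 1 other member of the list past the call.

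FOSL1 encodes FRA-1, a FOS-family partner of JUN proteins in AP-1. The high cells had 0 to 203 CPM with a median of 24.1, and the low cells 0 to 21.4 CPM with a median of 0. It had a count in 9 high and 5 low cells, and 6 high cells lay above every low cell while 3 high cells were at 0. The difference was 2.93 with a pair share of 81.9%, and the SD between cells was 2.67 in the high set and 1.78 in the low set. Summed over each set the level was 43.5 CPM in high cells and 3.37 CPM in low cells, a ratio of 12.9. Its exact Poisson 95% interval of 11.2 to 15.0 covers the counting of reads only, not the spread between cells. The highest high cells were fixed FRISCR replicate 8 at 203 CPM and live FRISCR replicate 11 at 178 CPM. The next was fixed FRISCR replicate 5 at 57.2 CPM. FOSL1 was unequal between preparations: the difference was 2.97 in live FRISCR cells, 5.62 in fixed FRISCR cells and -0.72 in live Triton cells. It was 0.76 within library set 1 and 3.45 within library set 2, and the call ended when the fixed FRISCR cells were left out.

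IER2, an immediate early nuclear protein, had the most even shift of the list. The high cells held 73.8 to 357 CPM with a median of 137, and the low cells 33.3 to 204 CPM with a median of 82.8. Every cell had counts, 4 high cells lay above every low cell and 5 low cells lay below every high cell. The difference of 0.94 stayed under the size for a call, although the pair share was 82.6%, and the SD was 0.71 in the high set and 0.74 in the low set. It was above 0 in all 3 preparations, at 0.54, 1.58 and 0.72 in live FRISCR, fixed FRISCR and live Triton cells, and in both library sets, at 0.48 and 0.74. When any of 4 single cells or all live FRISCR or all live Triton cells were left out, IER2 passed the limit for a call. Other settings lowered its difference, to 0.61 without fixed FRISCR cells and 0.60 relative to preparation and library set. Without the 2 cells of highest EGR1 it was 0.74.

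Among transcription factors of the list, ATF3, an activating transcription factor induced by stress, had a difference of 1.21 with a pair share of 58.7%. KLF10, a Kruppel-like factor, stood at 1.44 and 64.2%, and SRF, which encodes serum response factor, at 1.18 and 66.0%. MYC stood at 0.29 and 66.7%. Each of these had a pair share that failed the call. KLF6 lay on the other side at -0.79 and 37.8%. The signalling and structural members behaved likewise. ARC, which encodes a capsid-forming synaptic protein, differed by 1.25 with 67.0% of pairs, PHLDA1, a pleckstrin homology-like domain protein, by 1.25 with 63.9%, and ERRFI1, which restrains the EGF receptor, by 1.10 with 60.8%. MCL1, an antiapoptotic BCL2-family protein, differed by -1.26 with 32.6%, TRIB1, a pseudokinase, by -1.15 with 40.6%, and CTGF, a matricellular protein, by -1.02 with 39.9%. Thus 7 members had a difference of 1 or more and 3 had -1 or less, against 7.32% and 12.1% of all genes, but only FOSL1 of these 10 reached the pair share for a call.

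The remaining 31 listed immediate early genes lay under the 10 CPM limit, with means from 0 to 9.86 CPM over the 38 cells. JUN, the main partner of FOS, had a count in 5 of the 38 cells, 2 of them high and 1 of them low. JUNB had counts in 5 high and 2 low cells, and JUND, at 5.89 CPM on average, in 11 high and 11 low cells. FOSB and EGR4 had no count in any of the 38 cells, EGR2 in 3 and EGR3 in 1. DUSP1, a phosphatase that turns off MAP kinases, had a mean of 8.89 ± 15.1 CPM in high cells and 6.02 ± 15.9 CPM in low cells (SD over 12 cells each). ZFP36, which destabilizes AU-rich mRNAs, had 2.60 ± 5.80 CPM in high cells and 5.96 ± 6.46 CPM in low cells. BTG2, an antiproliferative gene, had 12.1 ± 25.6 CPM in high cells and 0.878 ± 2.93 CPM in low cells, with counts in 5 high and 3 low cells. For each of these 3 the sets overlapped.

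Per cell, the picture was a little more one-sided. The median over the 27 measured members in a cell, relative to its preparation, was 0.04 to 1.07 in the high cells with a median of 0.62, and -1.97 to 0.96 in the low cells with a median of 0.24. It was above 0 in all 12 high cells and in 7 low cells, and 74.3% of pairs had the high cell higher. Its rho with the score over the 38 cells was 0.34. The ranges overlapped over most of the high cells' span.

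**Figure D3:**
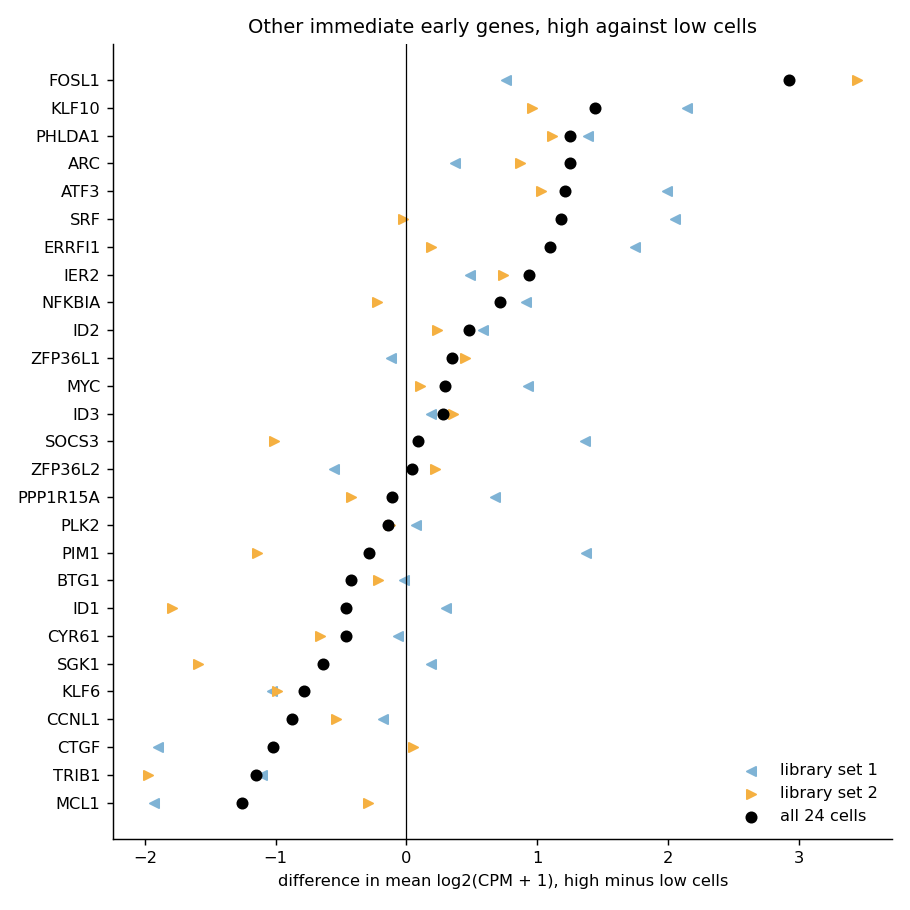
Difference in mean log2(CPM + 1), high minus low cells, of the 27 measured immediate early genes other than EGR1 and FOS. Black points use all 24 cells and triangles the cells of 1 library set; 15 members lie above 0 and 12 below, and FOSL1 lies farthest to the right.

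The p53 target list stood farthest above 0. These genes are activated by the p53 protein after DNA damage and other stress, and they include brakes on the cell cycle, DNA repair genes and inducers of cell death. Of 20 targets 16 were measured, 15 of them above 0, with a median difference of 0.68 against -0.03 over all genes. MDM2, RRM2B and ZMAT3, 3 of 16 against 1.24% of all genes, were called higher and none was called lower. The MDM2 and ZMAT3 calls ended in the TPM table and with a pseudocount of 10 CPM, those of MDM2 and RRM2B without fixed FRISCR cells and that of ZMAT3 without live FRISCR cells. The median was 0.74 in live FRISCR cells, 1.49 in fixed FRISCR cells and 0.71 in live Triton cells. It was 0.12 within library set 1 and 0.64 within library set 2, and 6 of 16 members were above 0 in both sets, against 24.5% of all genes. Per cell, the list's median was higher in the high cell in 77.8% of pairs. It was above 0 in 7 high and 4 low cells. The highest value of the 38 cells, 1.66, was that of live Triton replicate 5, a cell in neither set.

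MDM2, the ubiquitin ligase that degrades p53, had 32.6 to 269 CPM in high cells with a median of 148, and 12.0 to 160 CPM in low cells with a median of 82.2. Its difference was 1.10, with 0.66 within library set 1 and 1.39 within library set 2, and the pair share was 79.2%. The call ended when 1 of 4 cells was left out, fixed FRISCR replicates 8, 3 or 6 or live FRISCR replicate 10. RRM2B, the p53-inducible small subunit of ribonucleotide reductase, had 0 to 421 CPM in high cells with a median of 139, and 0 to 202 CPM in low cells with a median of 33.3. RRM2B and MDM2 overlapped between sets, with 4 of the low cells under every high cell for MDM2. The difference of RRM2B was 2.65 over all 24 cells, 0.25 within library set 1 and 4.20 within library set 2. ZMAT3, an RNA-binding zinc finger protein, had 1.83 to 69.6 CPM in high cells with a median of 10.5, and 1.13 to 47.2 CPM in low cells with a median of 1.99. Its difference was 1.48, with -0.29 within library set 1 and 2.11 within library set 2. For each of these 3 genes the difference was larger within library set 2, which held all 5 high live FRISCR cells; library set and preparation cannot be told apart there.

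Other targets were uneven. PMAIP1, which encodes the death inducer NOXA, was level at 0.00, and CCNG1, cyclin G1 and the most abundant member, at 0.01. TNFRSF10B, a death receptor, differed by 1.02 with 65.3% of pairs. CDKN1A, which encodes the p21 inhibitor of cyclin-dependent kinases and was looked up after the other values were seen, had 0 to 365 CPM in high cells with a median of 1.34, and 0 to 88.9 CPM in low cells with a median of 0. It had a count in 7 high and 3 low cells, and its pair share of 68.1% failed the call. Over all 38 cells the rho of MDM2 with the score was 0.44 and that of RRM2B 0.45.

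Cell cycle genes lay mostly below 0. Of 57 measured G2/M genes, which act from late replication to division, 45 were below 0, with a median of -0.39, and 26 were below 0 in both library sets, against 52.2% and 26.3% of all genes. The median was -0.09 within library set 1 and -0.40 within library set 2. Of these 57, CDK1 alone was called lower, 1.75% against 2.16% of all genes. CDK1 is the kinase that drives entry into mitosis. The high cells had 0 to 205 CPM with a median of 67.6, and the low cells 5.99 to 530 CPM with a median of 215. The sets overlapped, with 6 low cells above every high cell, and the difference was -1.71 with a pair share of 20.1%. It was below 0 in all 3 preparations, at -2.03, -0.98 and -2.16, and in both library sets, at -1.23 and -1.87, and the call ended without the live Triton cells.

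TOP2A, the topoisomerase that untangles chromosomes, had 35.2 to 1051 CPM in high cells with a median of 323, and 171 to 2690 CPM in low cells with a median of 569. Its difference of -1.06 came with 28.5% of pairs, so it was not called. BUB3, a spindle checkpoint protein, differed by -0.78 with 19.4% of pairs. The direction of the list was not shared by all preparations: its median was -0.80 in live FRISCR cells, 0.47 in fixed FRISCR cells and -0.50 in live Triton cells, and without the live FRISCR cells it was 0.11. Of 48 measured G1/S genes, which act in the start of replication, 36 were below 0, against 52.2% of all genes, with a median of -0.23. That median was 0.05 in live FRISCR cells, -0.72 in fixed FRISCR cells and -0.04 in live Triton cells. GINS3 and POLD3, 2 of 48 against 2.16% of all genes, were called lower. GINS3, of the replicative helicase, had a pair share at the limit of 25.0% and was called in only 12 of 24 repeats that left out 1 cell. POLD3, a subunit of DNA polymerase delta, differed by -1.19, with -2.64 within library set 1 and -0.14 within library set 2. Its call ended with a pseudocount of 10 CPM, relative to preparation and library set, and without live FRISCR or live Triton cells.

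Sterol genes lay mostly below 0 in both library sets. Of 26 cholesterol synthesis and uptake genes, all measured, 21 were below 0 and 19 were below 0 in both library sets, where all genes gave 26.3%. The median was -0.39, with -0.72 within library set 1 and -0.26 within library set 2. By preparation it was -0.02 in live FRISCR cells, -0.32 in fixed FRISCR cells and -1.30 in live Triton cells. Only STARD4 passed the call, 1 of 26 against 2.16% of all genes called lower. SREBF1, a regulator of lipid synthesis genes, was the farthest above 0 at 1.05 with 66.3% of pairs.

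STARD4 is a carrier of cholesterol between membranes. The high cells had 0 to 68.1 CPM with a median of 23.0, and the low cells 9.38 to 189 CPM with a median of 111. Of the low cells 8 lay above every high cell. The difference was -2.28 with a pair share of 12.5%, an SD of 1.83 in the high set and 1.28 in the low set, and -2.08 and -2.21 within the library sets. STARD4 was called in every repeat that left out a cell and under each of the 10 other settings tried. The abundant members ACAT2 and FDFT1 differed less, by -0.27 and -0.44.

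**Figure D4:**
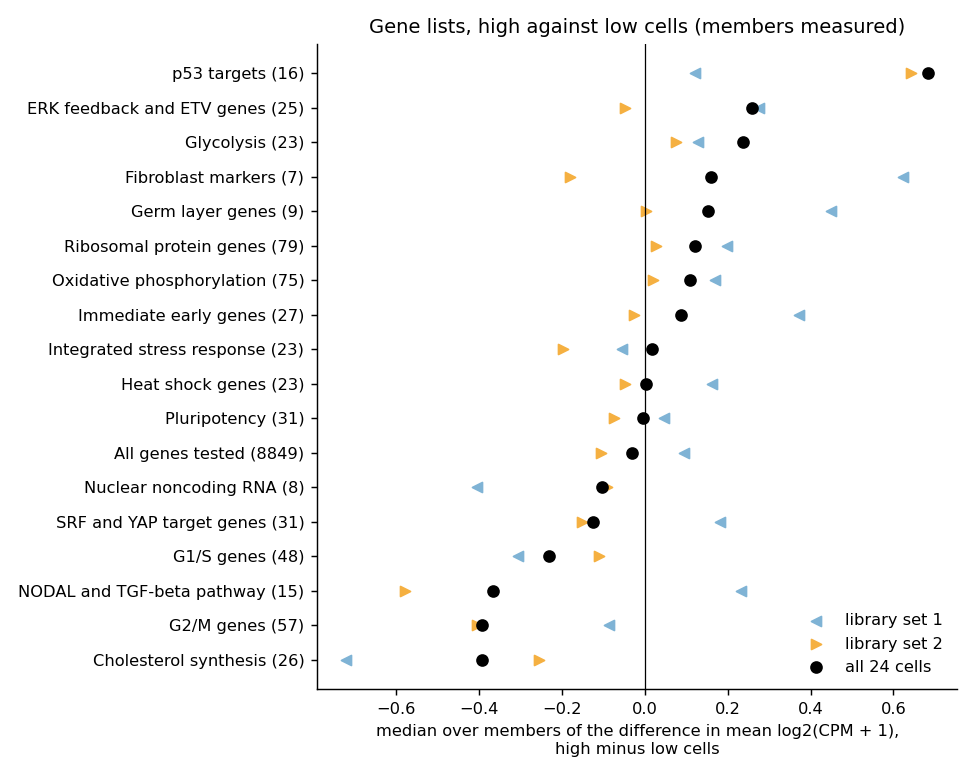
Median over the measured members of the difference in mean log2(CPM + 1), high minus low cells, for 17 gene lists and for all genes, with the number of members measured in parentheses. Black points use all 24 cells and triangles 1 library set; the p53 targets lie at 0.68 and the cholesterol and G2/M lists at -0.39, and several lists change side between the library sets.

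Genes of the ERK pathway, a known route to EGR1 and FOS beside others, were divided. Of 25 measured feedback and ETV genes 14 were above 0, with a median of 0.26 over members that was 0.28 within library set 1 and -0.05 within library set 2. By preparation it was 0.03 in live FRISCR cells, -0.02 in fixed FRISCR cells and -0.17 in live Triton cells. Per cell, the list's median ran the other way, at -0.48 to 0.65 in high cells with a median of 0.13 and -1.25 to 1.05 in low cells with a median of 0.66, and the high cell was higher in 28.5% of pairs. None was called higher, and the inhibitors SPRED1 and IL17RD, 2 of 25 against 2.16% of all genes, were called lower. The call of SPRED1 ended with a pseudocount of 10 CPM or without live FRISCR cells, and that of IL17RD relative to preparation and library set or without fixed FRISCR cells. SPRED1, which holds back RAF activation, had 3.72 to 25.2 CPM in high cells with a median of 7.19, and 1.67 to 109 CPM in low cells with a median of 27.3. Its difference was -1.34 with a pair share of 16.0%, and 7 low cells lay above every high cell. IL17RD, also called SEF, an inhibitor of FGF signalling, had medians of 8.38 CPM in high cells and 40.3 CPM in low cells, and a difference of -1.64 with 21.5%. Both were above 0 in live Triton cells, at 0.26 and 0.34. DUSP6, the ERK phosphatase and the most abundant member, differed by 0.55 with 57.6% of pairs.

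**Figure D5:**
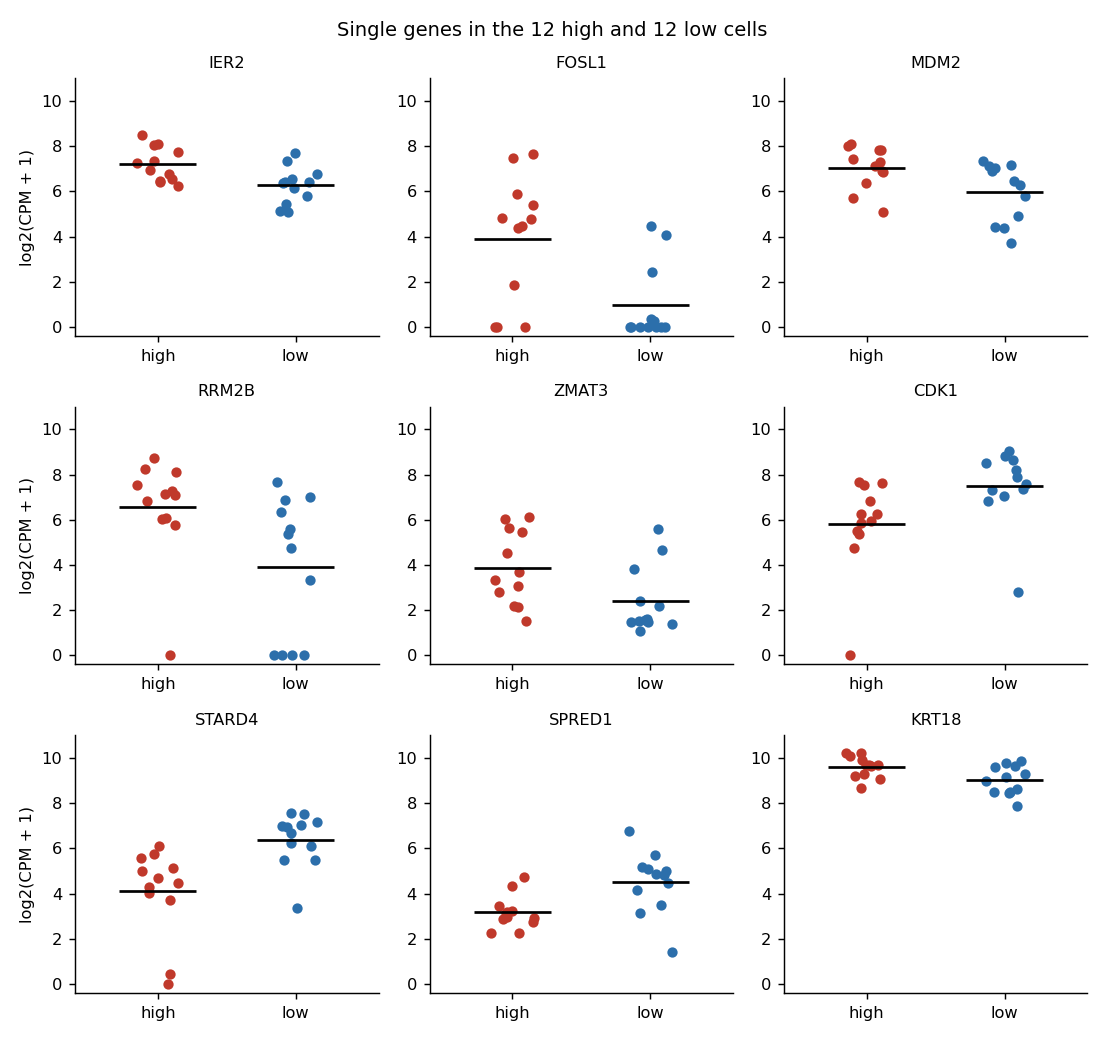
Level of 9 genes as log2(CPM + 1) in each of the 12 high cells (left, red) and 12 low cells (right, blue); lines are means. Medians of IER2 were 137 CPM in high and 82.8 CPM in low cells, those of STARD4 23.0 and 111 CPM, and the cells of both sets overlap in each panel.

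Stress and housekeeping lists showed small differences. The integrated stress response list had a median of 0.02 over 23 genes, but -0.06 within library set 1 and -0.20 within library set 2. XBP1, a transcription factor of the unfolded protein response, was called higher, 1 of 23 against 1.24% of all genes. Its medians were 115 CPM in high cells and 46.2 CPM in low cells, and its difference was 1.53. It kept the call in only 13 of 24 repeats without 1 cell. CHAC1, a glutathione-degrading enzyme, lay at -2.30 with 25.7% of pairs, just short of a call. The heat shock list stood at 0.00 over 23 genes, with 0.16 within library set 1 and -0.05 within library set 2, and its most abundant member HSP90AB1 at 0.10. Of 79 ribosomal protein genes 70 were above 0 with a median of 0.12, where 47.8% of all genes were above 0. The median was 0.33 in live FRISCR, 0.01 in fixed FRISCR and -0.12 in live Triton cells. It was 0.20 within library set 1 and 0.03 within library set 2. The list's share of all counts was 4.04% to 8.26% in high cells with a median of 6.47%. In low cells it was 4.17% to 8.01% with a median of 5.62%. That share's part in the results was not tested. Of 75 oxidative phosphorylation genes 57 were above 0 with a median of 0.11, the farthest being NDUFB2, a complex I subunit, at 0.65 with 88.9% of pairs. That list's median was 0.23 in live FRISCR, 0.10 in fixed FRISCR and -0.01 in live Triton cells. Within the library sets it was 0.17 and 0.02. The glycolysis list had a median of 0.24 over 23 genes, and GAPDH stood at 0.24. By preparation the glycolysis median was -0.13 in live FRISCR, 0.57 in fixed FRISCR and 0.22 in live Triton cells. Within the library sets it was 0.13 and 0.08. None of these 3 housekeeping lists held a called gene.

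The pluripotency list had a median of -0.01 over 31 genes with none called. Its farthest members were SALL4 at -1.19 and PRDM14 at 1.05, both transcription factors of the pluripotent state. NODAL and TGF-beta pathway genes had a median of -0.37 over 15 genes, 12 of them below 0, with 0.23 within library set 1 and -0.58 within library set 2. ACVR2A, an activin receptor, was called lower, 1 of 15 against 2.16% of all genes. It had medians of 4.46 CPM in high cells and 38.04 CPM in low cells. Its difference was -2.48, and -0.01 within library set 1. Of 36 germ layer genes 9 were measured. KRT7, an epithelial keratin, was called lower at -3.07, 1 of 9 against 2.16% of all genes. It had counts in 4 high and 10 low cells, and its call ended without fixed FRISCR cells. KRT8 and KRT18, the keratin pair of simple epithelia, lay at 0.63 and 0.59 with 79.9% and 77.1% of pairs and were not called. SRF and YAP target genes had a median of -0.12 over 31 genes, with 0.18 within library set 1 and -0.15 within library set 2. Fibroblast markers stood at 0.16 over 7 genes, with 0.62 and -0.18, and neither list held a called gene. Among nuclear noncoding RNAs, at -0.10 over 8, KCNQ1OT1, an antisense transcript of an imprinted locus, was called lower at -2.07. That was 1 of 8 against 2.16% of all genes, and the call ended in the TPM table and with a pseudocount of 10 CPM. The sources do not say whether counting used strand.

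Over all measured genes, 14 each way were named by the size of the smaller of their differences within the library sets. None of the 28 separated the sets. GABARAPL1, an ATG8-family protein of autophagosomes, had 22.6 to 207 CPM in high cells with a median of 79.3, and 0 to 119 CPM in low cells with a median of 8.02. Its difference was 2.92, with 3.44 and 2.14 within the library sets, the pair share was 87.5%, and 7 low cells lay below every high cell. SPG20, which encodes spartin, a protein of endosomes and lipid droplets, had the largest difference of the named genes at 3.51. Its pair share was 82.6%. The high cells had 0 to 165 CPM with a median of 54.4, and the low cells 0 to 172 CPM with a median of 0.0977. No high cell lay above every low cell, and 1 low cell lay above every high cell. ACOT8, a peroxisomal thioesterase, had 11.8 to 131 CPM in high cells and 0 to 44.5 CPM in low cells, a difference of 2.08 and a pair share of 87.5%. These 3 genes were each called under every other setting and without any one cell.

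The other 11 higher genes had differences of 1.77 to 2.74. Among them were DNAJB12, a J-domain protein of the endoplasmic reticulum, at 2.36 with 81.9% of pairs (4.20 and 1.87 within the library sets), and DNAJA4, a J-domain protein, at 1.77 with 77.1%. Also named were UBAC1, of a ubiquitin ligase complex, at 2.34, and UBL3, a membrane-anchored ubiquitin-like protein, at 1.91. MICB, a stress-induced ligand of natural killer cells, stood at 2.74 with 80.9%, and B3GALT5, a galactosyltransferase of stem cell glycolipids, at 2.15 with 79.5%. PMS2, of DNA mismatch repair, stood at 2.56, and it shares sequence with pseudogenes, so its counts are uncertain. FAM169A at 2.71, LYRM5 at 2.36, ITFG2 at 2.18 and PPM1J at 2.17 completed the higher genes. DNAJA4 had a count in 8 high cells and 1 low cell, with a median of 0.944 CPM in high cells. The means of DNAJA4, B3GALT5 and LYRM5 over the 38 cells were 10.6, 10.7 and 12.5 CPM, near the 10 CPM limit. They were 15.9, 17.6 and 22.6 CPM in high cells, but 2.91, 5.30 and 4.25 CPM in low cells. These genes would not have counted as measured on the low cells alone. DNAJA4, PPM1J and UBL3 were not higher in live FRISCR cells, at -0.81, -0.18 and -0.13, and UBAC1 was not higher in live Triton cells, at -0.94. UBL3 was called in 14 of 24 repeats without 1 cell, PMS2 in 19, DNAJA4 in 20 and PPM1J in 23. PPM1J was called under only 5 of 10 other settings, and not in the TPM table. Without fixed FRISCR cells the calls of UBAC1, LYRM5, MICB, DNAJA4, UBL3 and PPM1J ended. Those of ITFG2 and B3GALT5 ended without live FRISCR cells, and those of PMS2 and PPM1J without live Triton cells. With a pseudocount of 10 CPM the calls of DNAJA4, B3GALT5 and PPM1J ended.

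Of the 14 lower genes, BTN2A2, a butyrophilin, had the difference farthest below 0, -3.18 with 12.5% of pairs. Its high cells had 0 to 41.7 CPM with a median of 0, and its low cells 0 to 119 CPM with a median of 20.6. TPBG, the oncofetal 5T4 glycoprotein, stood at -3.06 with 14.2%, and WDR11, a WD-repeat protein, at -2.63 with 17.7%. For each of the 3 the cells overlapped, with 4, 3 and 7 low cells above every high cell. CENPQ, of the inner kinetochore, lay at -2.07 and C16orf59 at -2.24. PIGC, of GPI anchor synthesis, lay at -2.46, HS2ST1, a heparan sulfate sulfotransferase, at -1.84, and UBXN8, of the endoplasmic reticulum, at -2.38. The rest were ZNF397 at -2.50, ZNF701 at -2.47, CTH, which makes cysteine, at -2.49, VGLL4, a cofactor that opposes YAP, at -2.32, PCDHA11 at -2.80 and STARD4, described above. PCDHA11 shares its constant exons with the other alpha protocadherins, so its counts are uncertain. CTH was called in 13 of 24 repeats without 1 cell and under 4 of 10 other settings, and HS2ST1 in 23 repeats and under 7 settings. The calls of UBXN8, PIGC and CTH ended without fixed FRISCR cells, and those of PCDHA11, ZNF701 and HS2ST1 without live Triton cells. With a pseudocount of 10 CPM the calls of ZNF701, HS2ST1 and CTH ended, and without centring those of VGLL4 and CTH. CTH was not lower in live Triton cells, at 1.33, and UBXN8 not in live FRISCR cells, at 0.04. Of the 28 named genes 22 were called in every repeat without 1 cell, and 12 were also called under every one of the 10 other settings.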

How the data were processed

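Libraries of single H1 cells were made by Smart-seq2 with Nextera XT, according to the labels' protocols, whose extraction text otherwise describes cortical tissue. A table of estimated counts and a table of TPM, each of 23045 rows by 45 cells, were deposited by the authors; 40.3% of the nonzero estimated counts carry a decimal. The submitters' processing notes name GRCh37 (hg19). The name of the aligner or quantifier is not given in the sources used here. Totals over the 45 cells were 3388450 to 6594020 counts. Intervals treat reads as independent and cover the counting of reads only. Reads carry no molecular identifiers, so copies of the same molecule cannot be told apart and the intervals may be too narrow.

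CPM were computed from the deposited estimated counts without rounding, and no cell or row was left out; the 44 rows named for rRNA stayed in the totals except in an alternative. Cells correlated at 0.445 to 0.638 and no pair was identical. For values over all high and low cells, centring used the mean of each preparation over the 38 cells. The sets hold equal numbers of each preparation, so this changes the pair shares and not the differences. Within a library set, centring used the mean of each preparation over the cells of that library set. Preparations are unequal there, with 0 high and 3 low live FRISCR cells in library set 1, so centring changes those differences. No count test was run. Alternatives were TMM factors (edgeR 4.0.16 in R 4.3.3), median-of-ratios factors (DESeq2 1.42.0), the TPM table, other pseudocounts and filters, no centring, single library sets, and leaving out cells or preparations; other steps used Python 3.11.15, pandas 2.3.3 and numpy 2.4.6. Scripts were tested on simulated data.

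The members, gene lists and measures were chosen with earlier results of these data known. Named genes were the 14 called each way with the largest smaller-of-2 difference within library sets, the same sign in both and a count in at least 8 of 12 cells of the higher set. Of the immediate early list any measured member could be named, and of every other list the 3 most abundant, the called and the most extreme members. CDKN1A and the immediate early genes under the limit fall outside that rule and were named for their known role.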

Additional observations from a re-analysis of the deposited data

Results flagged for a closer look

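In the 7 fixed Triton cells, which no comparison used, 3 cells had more than 3 counts of EGR1. Their levels were 69.7, 50.5 and 65.2 CPM, against a median of 51.5 CPM in the high cells and 0.808 CPM in the low cells, and the other 4 had at most 0.218 CPM. FOS was at 0 in all 7. In the same cells IER2 was 333 CPM in replicate 7 and 0 to 31.0 CPM in the other 6, so that 1 cell stood far from the rest. The rule that marked it has a nominal rate of about 1 group in 20 by chance alone. That rate was not tested for single cells with many values at or near 0. Replicate 7 was 1 of the 3 cells with EGR1, at 65.2 CPM.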

How the results depend on the processing

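Each set is 1 sample, so no setting changes a test, and calls depend on the number of cells compared. The 110 genes called higher and 191 genes called lower became 913 and 697 within library set 1, 294 and 514 within library set 2, 266 and 480 without fixed FRISCR cells, 384 and 495 without live FRISCR cells, and 234 and 345 without live Triton cells, since a pair share over fewer cells reaches its limit more often. A mean of at least 50 CPM left 26 and 58, a pseudocount of 10 CPM left 52 higher calls, and leaving out 1 cell gave 103 to 146 higher and 194 to 245 lower. TMM gave 106 and 203, median-of-ratios 123 and 189, TPM 95 and 206, no filter 156 and 235, and leaving out the 2 cells of highest EGR1 (chosen after seeing the data) 129 and 257. The immediate early list's median of 0.09 was -0.027 within library set 2, -0.010 relative to preparation and library set (a setting chosen after seeing the data), and -0.047 to 0.30 without 1 cell, below 0 without fixed FRISCR replicate 11 (-0.0020) or 12 (-0.047). The G2/M median of -0.39 was 0.11 without live FRISCR cells and -0.46 to -0.24 without 1 cell. The p53 and cholesterol medians kept their sign in all 38 alternatives, at 0.12 to 0.88 and -0.72 to -0.13. No paired analysis was possible because replicate numbers follow accession order and each set is 1 sample.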
